A study of Danio rerio with 6 samples.

Results

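The respiratory chain and ATP synthase genes were followed in osteoblasts, the bone-forming cells, of regenerating zebrafish scales. Members were chosen by zebrafish symbol (nduf with a subunit letter and number, sdh, uqcr, cyc1, cox4 to cox8 and atp5), which takes in most nuclear-encoded subunits of complexes I to V, the ATP synthase inhibitors and the joining factor cox7a2l, and gave 92 of the 34289 genes in the count tables. There were 40 genes of complex I, 5 of complex II, 9 of complex III, 18 of complex IV and 20 of complex V. The acyl carrier genes ndufab1a and ndufab1b, also complex I subunits, fall outside the symbol pattern and were read with the carriers, and subunits with no matched symbol are not analysed here. Both groups came from fish carrying the osx:H2A-mCherry and osx:Venus-hGeminin transgenes, in which osterix (sp7) regulatory sequence drives both reporters, so the gates describe cells in which that driver was active. About 50 scales were plucked from each side, regenerating scales were collected on day 4, and RNA from 3 to 5 pooled fish made each library. All libraries shared a treatment with Liberase, a tissue-digesting enzyme, for the same time. The age of the fish is not given in the sources used here. Live mCherry-positive cells were divided by their Venus-hGeminin signal, which gave 3 libraries without the signal (negative gate) and 3 with it (positive gate). Venus-hGeminin is degraded in G1 phase and accumulates from S phase to mitosis. The sample titles call the positive gate high in Erk activity, whereas the design text gives reporter and Erk activity an inverse relation, so groups are named by gate only.

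The respiratory chain sits in the inner mitochondrial membrane. Complex I takes electrons from NADH and complex II takes them from succinate, complex III passes them to cytochrome c, and complex IV reduces oxygen. Complexes I, III and IV pump protons, and complex V, the ATP synthase, uses the gradient to make ATP. Except for complex II, whose subunits are all nuclear, each complex also has subunits encoded in mitochondrial DNA. The tables hold 0 mitochondrial rows, so every value here describes the nuclear-encoded part only.

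Total counts ranged from 15854710 to 34472612 per library, and 11977 to 17875 genes had at least 1 count. The geminin gene gmnn, which checks the gate, had 426, 365 and 401 CPM (counts relative to library size after TMM, a between-library scaling in edgeR) in the negative libraries, with replicates in numerical order here and throughout. It had 1516, 1633 and 1518 CPM in the positive libraries (log2 fold change 1.97 ± 0.21 SE and adjusted p = 0.0106 by edgeR). The sp7 gene was present in both groups, at 72.4 to 138 CPM in the negative and 150 to 272 CPM in the positive libraries (edgeR adjusted p = 0.464). The 11 osteoblast markers together took 10.17% to 18.3% of counts in the negative and 19.2% to 27.2% in the positive libraries. The difference lay mainly in the collagen genes col1a1a and col1a2 (log2 fold changes 2.13 and 2.15), whereas 6 of the 10 tested osteoblast markers had negative estimates, among them col10a1a (-0.64) and spp1 (-0.71). Leukocyte, osteoclast and keratinocyte markers took smaller shares in the positive libraries. The 13 leukocyte markers in the tables took 0.254% to 0.412% of counts in the negative and 0.00655% to 0.0163% in the positive libraries, and 7 osteoclast markers took 0.0673% to 0.0762% and 0.00542% to 0.00771%. The 9 keratinocyte markers took 0.102% to 0.52% and 0.0538% to 0.0823%. Of 9 markers of ionocytes, the mitochondrion-rich cells of fish skin, 5 had 0 counts in all libraries, foxi3a, foxi3b, slc12a10.2, gcm2 and ca15a. Together these 9 took 0.00438% to 0.00711% and 0.00402% to 0.0055%. The 8 muscle markers took at most 0.00261% in any library, with ckmb, acta1b and myhz2 at 0. The 4 erythrocyte markers took at most 0.00962%, the 6 pigment cell markers at most 0.0031% (pmela at 0) and the 3 endothelium markers in the tables at most 0.000121% (kdrl and tie1 at 0).

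Most members were abundant. The median level per length over the 6 libraries was 203 TPM (a level per exon length that sums to the same total in each library, over nuclear genes only), and 79 of the 92 members had a mean of at least 10 CPM. The highest level was that of cox7c, a small subunit of cytochrome c oxidase, at 2896 TPM. It was followed by atp5f1b, the catalytic beta subunit of the ATP synthase, at 1875 TPM and ndufa4a at 1852 TPM. The ndufa4 genes count under complex I by their symbol, although the mammalian NDUFA4 protein is known as a subunit of complex IV. By complex the median level was 147 TPM for complex I, 114 TPM for II, 160 TPM for III, 464 TPM for IV and 398 TPM for V. All 20 complex V genes had at least 70.4 TPM, whereas complexes I and IV each reached below 1 TPM in their rarest copies.

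**Figure D1:**
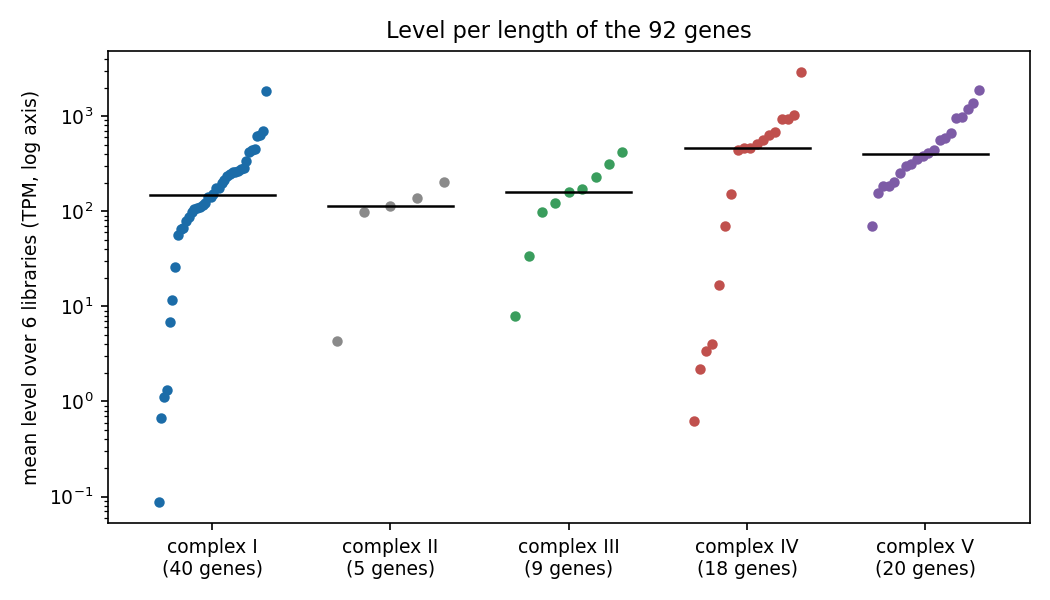
Level per length of each member (TPM, log axis) as the mean over the 6 libraries, 1 point per gene, with the complex median as a bar. Complexes IV and V have the higher medians (464 and 398 TPM), and the lowest points of complexes I to IV lie under 10 TPM.

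The members with low levels were mostly additional gene copies or related genes of the same family. The pseudogene ndufa9b had 3 counts, all in Geminin-negative replicate 1. The genes cox8b and ndufa4l2a also had counts in that library only, 17 and 36. The ndufa4l2b gene had 20 counts there, 7 and 9 in Geminin-positive replicates 1 and 3 and 0 elsewhere. The ndufa4b copy had 3 counts in Geminin-negative replicate 2, 41 and 47 in Geminin-positive replicates 2 and 3 and 0 in the other 3 libraries. These 5 genes did not pass the low-count filter and were not tested. Of the 87 members tested, 83 had counts in all 6 libraries (95.4%), against 62.4% of all 12855 genes tested, whose median level was 9.23 CPM compared with 116 CPM for the members.

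Some members share exon bases with a neighbouring gene, and those with the largest shared part had low levels for their complex. The row of ndufa12, an accessory subunit of complex I, shares 71.9% of its exon bases with nr2c1 and had 11.8 TPM. The row of uqcrb, a subunit of complex III, shares 50.9% with si:dkey-231l1.12 and had 7.92 TPM, the lowest value in its complex. The row of ndufb11 shares 66.4% with rhoaa and had 66.2 TPM. In all, 12 members have exon bases inside an exon of another gene, and others of them had high levels, such as atp5f1e with 30.5% shared and 441 TPM and cox8a with 16.2% and 462 TPM. The authors' handling of reads that fall in several genes is not given in the sources used here, and its part in these levels was not tested. The iron-sulfur subunit gene ndufs8a, with no such overlap, also had a low level of 6.76 TPM. Its copy ndufs8b had no matched symbol and was not analysed, so this value does not give the level of the subunit.

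The main comparison asked whether the genes of each complex differed between the gates. None of the 87 members passed the test in either direction (0 of 87, edgeR quasi-likelihood test, Benjamini-Hochberg adjusted over all genes, lowest adjusted p = 0.254). Over all genes 0.607% were called, 0.124% higher and 0.482% lower in the positive libraries. At an unadjusted p under 0.05 there were 4 members, 3 higher and 1 lower, or 4.6% of the members against 9.4% of all genes tested. DESeq2 called 1 member, cox6b1, against 4.93% of its genes, and limma-voom called 0. The called genes had absolute log2 fold changes of at least 1.47, with a median of 3.31, so 0 calls does not show that the members were equal between the gates. The median log2 fold change of the members was 0.21, with 65 positive and 22 negative, against -0.01 over all genes tested, of which 49.6% were positive. By complex the medians were 0.1 for I, 0.12 for II, 0.21 for III, 0.28 for IV and 0.24 for V. The median of complex II, with 5 genes, took either sign between alternatives, from -0.32 with library size only to 0.23 without Geminin-negative replicate 2. The medians of the other complexes were also negative with library size only. That of complex I was -0.03 without Geminin-negative replicate 1.

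The direction of the medians depends on the scaling. The TMM factors did not overlap between the gates, at 1.245, 1.06 and 1.247 in the negative and 0.959, 0.728 and 0.872 in the positive libraries. With scaling by library size alone, which moved the median of all genes to -0.47, the median of the members was -0.27 and only 13 of the 87 were positive. The median of the members was above that of all genes under both scalings when all 6 libraries were used. The members' share of all counts was 1.17%, 1.75% and 1.89% in the negative libraries and 1.37%, 1.31% and 1.4% in the positive ones. The positive libraries lie inside the range of the negative ones, and the group means were 1.6% ± 0.38 and 1.36% ± 0.0462 (SD, n = 3 each). After TMM scaling the summed level was 9494, 16540 and 15210 CPM in the negative and 14350, 17990 and 16070 CPM in the positive libraries.

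**Figure D2:**
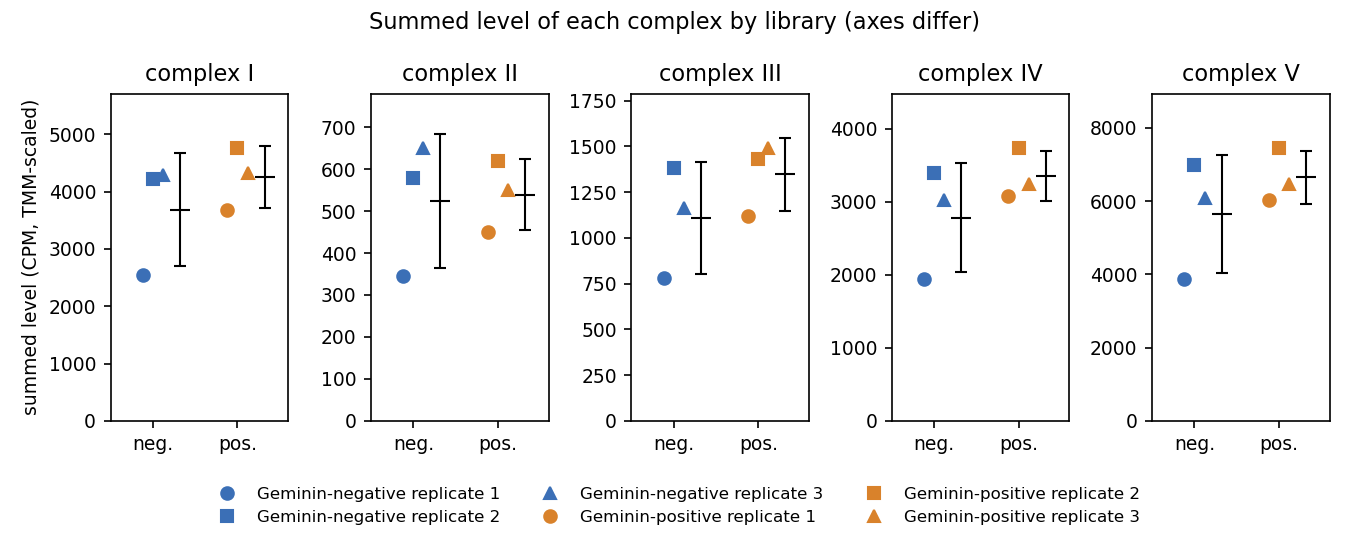
Summed CPM (TMM-scaled) of each complex in each library, with mean and SD (n = 3) beside the points and a separate axis from 0 for each complex. Geminin-negative replicate 1 is the lowest library in all 5 panels, and the other negative libraries overlap with the positive ones.

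The fold changes of the members were estimated with small errors compared with most genes. The median standard error of the log2 fold change was 0.31 for the members and 1.15 for all genes tested, whose levels were lower. For 46 of the 87 members (52.9%) the 95% interval lay within 1 log2 unit of 0 on both sides, and for 5.82% of all genes. For these members a change of 2-fold or more lay outside the interval under TMM scaling, whose uncertainty the intervals do not include. Such intervals were held by 21 of 36 complex I genes, 1 of 5 of complex II, 4 of 9 of complex III, 8 of 17 of complex IV and 12 of 20 of complex V. An absolute log2 fold change of at least 1 was estimated for 4 members (4.6%), all of complex IV, against 35.7% of all genes tested. These were cox4i2, cox5b2, cox6a2 and cox7a1, and the last 3 had under 10 CPM in all libraries.

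**Figure D3:**
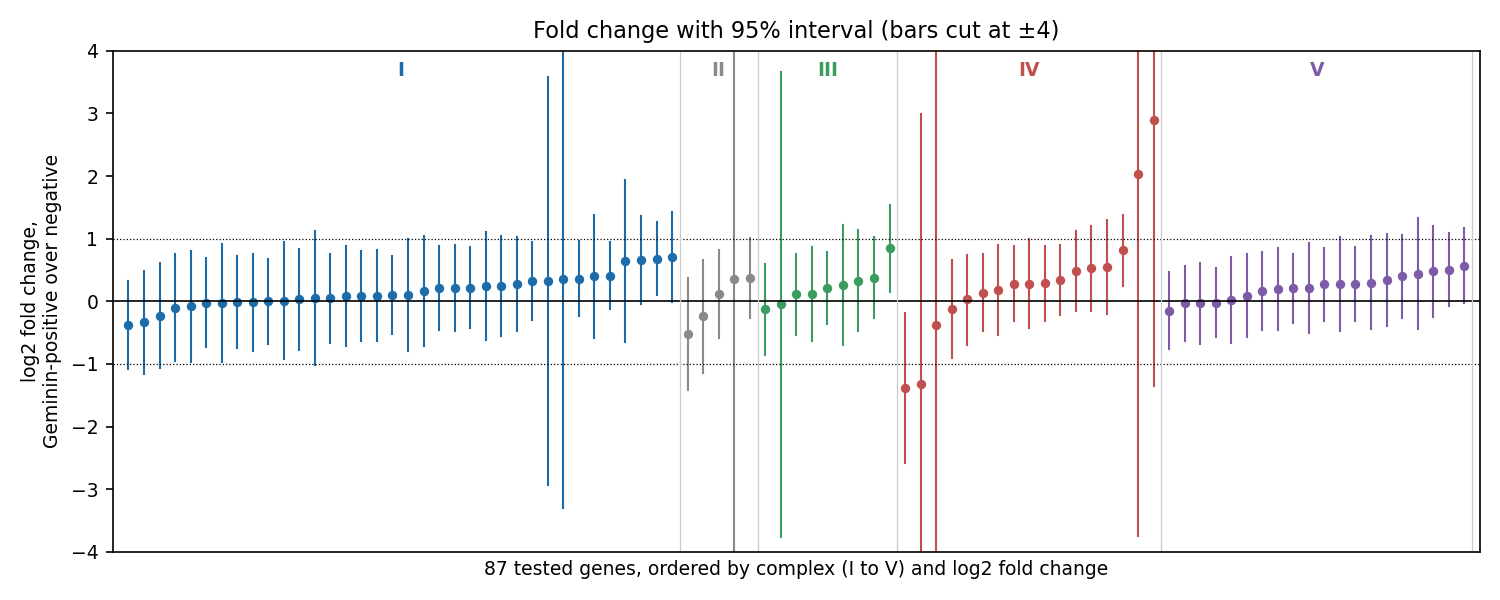
Log2 fold change (Geminin-positive over Geminin-negative) of the 87 tested members with 95% intervals, ordered by complex, with dotted lines at 1 and -1 and intervals cut at the edges of the plot. Most points lie between 0 and 0.5, all but 4 intervals include 0 (ndufa4a, uqcrc2b, cox6b1 and cox4i2), and the widest belong to members with low counts.

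The 6 libraries did not fall apart by gate alone, since 1 negative library was low for most members. Geminin-negative replicate 1 held the lowest CPM of the 6 libraries for 70 of the 87 members (80.5%), against 14.3% of all genes tested. The median member lay 0.52 log2 units below its 6-library mean there, compared with 0.15 and 0.05 above it in Geminin-negative replicates 2 and 3. In the positive libraries the medians were -0.02, 0.23 and 0.13. The members' summed share of total counts was lowest in the same library, and so was their summed level after TMM scaling. The values of single members and the medians were taken with TMM scaling only. Each complex had a negative median in that library, -0.56, -0.53, -0.4, -0.59 and -0.47 for complexes I to V. Without it the median log2 fold change of all members was 0.04 and that of complex V 0.07, with 48 of 88 tested members positive and 0 called by edgeR (3 at an unadjusted p under 0.05). The median of all genes was then 0.09, above that of the members.

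Other genes also moved in Geminin-negative replicate 1, which had the lowest total count and the most genes detected. The 1917 genes whose mean was 50 CPM or more had a median of -0.23 there, and all 12855 genes tested had 0.41. The 195 abundant genes with exons summing to under 1000 bases had -0.38, with 58.5% at their lowest level in that library, and the 1722 longer ones had -0.21, with 33.2%. The members are short, with a median exon length of 862 bases against 2533 bases for all genes tested. Many belong to these groups of abundant genes and were not taken out, so the groups' values are partly the members' own. The part of level, length and library in the members' pattern was not tested. Citric acid cycle genes had a median of -0.42 in that library, mitochondrial ribosomal protein genes -0.3 and assembly factors -0.27. Electron and substrate carriers had -0.19, glycolysis genes -0.15, cytosolic ribosomal protein genes -0.09 and regulators of mitochondrial gene expression 0.2.

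**Figure D4:**
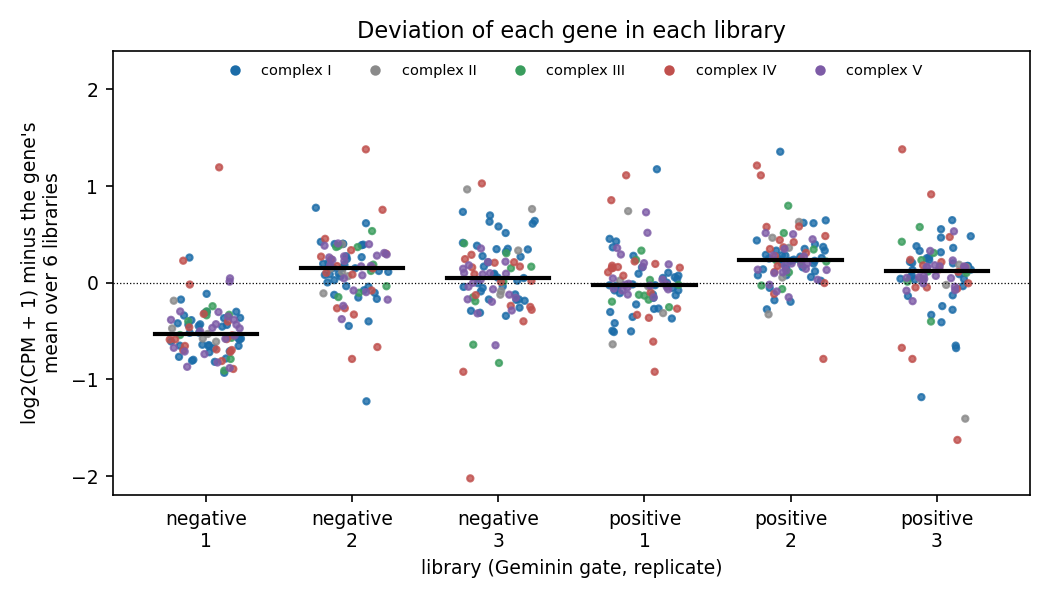
Log2(CPM + 1) of each tested member minus its mean over 6 libraries, by library, with 1 point per gene coloured by complex and the median as a bar. The points of Geminin-negative replicate 1 centre on -0.53, and the other 5 medians lie between -0.02 and 0.23.

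The proportions of the complexes among the members differed between the gates by less than 1 percentage point. Complex V genes took 41% ± 1.09 of the members' counts in the negative and 41.2% ± 0.875 in the positive libraries (SD, n = 3 each). Complex I genes took 26.9% ± 1.37 and 26.3% ± 0.616, and complex IV genes 20.3% ± 0.363 and 20.8% ± 0.637. Complex III genes took 8.08% ± 0.377 and 8.35% ± 0.813. Complex II genes took 3.64%, 3.5% and 4.28% of the members' counts in the negative and 3.13%, 3.44% and 3.42% in the positive libraries. Here the groups did not overlap, by a narrow gap (3.5% against 3.44%). This complex has only 5 genes, and the difference was not tested. These shares need no scaling between libraries.

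Among complex I genes, the log2 fold change was positive for 26 of the 36 tested. The gates did not overlap for 4 (11.1%), all higher in the positive libraries, against 8.09% of all genes tested in that direction. The ndufa4a gene (ENSDARG00000099499, chromosome 3, 20800536 to 20807436, danRer10) had 384, 546 and 544 CPM in the negative and 630, 940 and 787 CPM in the positive libraries. All 3 positive libraries were above the negative ones (log2 fold change 0.68 ± 0.25 SE and adjusted p = 0.389 by edgeR). The accessory subunit gene ndufa2 had 37.4, 34.9 and 37.2 against 56.4, 73 and 49.3 CPM, again without overlap (log2 fold change 0.71 ± 0.31 SE and adjusted p = 0.54 by edgeR). For ndufa9a, an accessory subunit, the values were 59.5, 92.6 and 99.3 against 101, 134 and 162 CPM. Its groups were separated by a narrow gap (log2 fold change 0.66 ± 0.31 SE and adjusted p = 0.594 by edgeR). The fourth was ndufb3, an accessory subunit of the membrane arm (log2 fold change 0.41).

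The core subunits of complex I include those that hold the flavin and the iron-sulfur centres. The log2 fold changes were 0.21 for ndufv1, which holds the flavin, -0.1 for ndufv2, 0.01 for ndufs3 and -0.01 for ndufs7, and none of these genes had groups apart. The largest core subunit, encoded by ndufs1, had 33.7, 43.9 and 86.4 CPM in the negative and 63.4, 156 and 37.3 CPM in the positive libraries. Its positive libraries held both the highest and a low value (log2 fold change 0.64 ± 0.57 SE and adjusted p = 0.9999 by edgeR), and without Geminin-positive replicate 2 the log2 fold change was -0.11. The membrane arm gene ndufb8 had 317 ± 101 and 316 ± 43.7 CPM. The lowest estimates were those of ndufb2 (-0.38), ndufa5 (-0.33) and ndufv3 (-0.23), whose groups overlapped.

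Complex II, succinate dehydrogenase, also works in the citric acid cycle. The flavoprotein gene sdha had 87.8, 133 and 217 CPM in the negative and 81.4, 164 and 125 CPM in the positive libraries, and the iron-sulfur subunit gene sdhb had 138, 234 and 194 against 206, 293 and 237 CPM. Both overlapped between the gates (log2 fold changes -0.24 and 0.38, edgeR adjusted p = 0.9999 and 0.942). The membrane anchor genes sdhc and sdhdb had log2 fold changes of 0.12 and -0.52 (SE 0.31 and 0.39). Of the anchor pair, sdhdb had 113 TPM and sdhda 4.35 TPM. The sdhda gene had 0 counts in Geminin-positive replicate 3.

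In complex III, 7 of 9 genes had a positive log2 fold change. Only uqcrc2b was apart between the gates (11.1% of the complex, against 8.09% of all genes tested in that direction). This core protein gene (ENSDARG00000071691, chromosome 12, 10386833 to 10403818, danRer10) had 88.6, 104 and 62.4 CPM in the negative and 132, 195 and 132 CPM in the positive libraries. The estimate was 0.85 (log2 fold change, SE 0.3, 95% interval 0.15 to 1.54), with an unadjusted p = 0.0223 and an edgeR adjusted p = 0.356. The other core protein gene uqcrc1 had 322 ± 120 and 404 ± 113 CPM, and uqcrfs1, the Rieske iron-sulfur protein, 162 ± 36.5 and 211 ± 46 CPM (SD, n = 3 each). The heme-bearing subunit gene cyc1 had a log2 fold change of 0.11 and uqcrh, the hinge protein at the cytochrome c site, of 0.11.

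Complex IV held the member with the smallest p, cox6b1, and the only member lower in all positive libraries, cox4i2. The cox6b1 gene (ENSDARG00000045230, chromosome 24, 39718206 to 39722738, danRer10), a subunit on the intermembrane side, had 166, 227 and 229 CPM in the negative and 308, 408 and 379 CPM in the positive libraries. All positive libraries were above all negative ones. The log2 fold change was 0.82 (SE 0.25, 95% interval 0.25 to 1.38), with an unadjusted p = 0.00988 and an edgeR adjusted p = 0.254. It was called by DESeq2 (adjusted p = 0.0303), and over all 13 alternative fits the adjusted p ran from 0.0303 to 0.769.

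The opposite direction was seen for cox4i2 (ENSDARG00000022509, chromosome 23, 19018045 to 19024805, danRer10), an isoform of subunit IV that in mammals is known for its regulation by oxygen. It had 60.1, 44.1 and 28.8 CPM in the negative and 19.8, 23.7 and 7.65 CPM in the positive libraries. It was the only tested member with all positive libraries below all negative ones (1.15% of members, against 10.3% of all genes tested). The log2 fold change was -1.38 (SE 0.52, 95% interval -2.58 to -0.19), with an unadjusted p = 0.0284 and an edgeR adjusted p = 0.397. The adjusted p ran from 0.158 to 0.762 over the 13 alternative fits, and the estimate was negative in all of them. Leukocyte and osteoclast markers were also lower in the positive libraries (4 and 2 of them called), and their part in the cox4i2 difference was not tested. In these bulk samples fewer cells of a type and less RNA per cell cannot be told apart.

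The other complex IV genes had larger p-values. The cox6c gene had 56, 97.8 and 76.9 CPM in the negative and 98.2, 128 and 107 CPM in the positive libraries, without overlap by a gap under 1 CPM (log2 fold change 0.53 ± 0.3 SE and adjusted p = 0.756 by edgeR). The most abundant gene cox7c had 321, 660 and 619 against 433, 621 and 575 CPM, with overlapping groups (log2 fold change 0.03, SE 0.31). The rare copy cox5b2 had 31, 57 and 0 counts in the negative and 100, 108 and 153 in the positive libraries. In CPM its groups did not overlap (log2 fold change 2.9 ± 1.86 SE and adjusted p = 0.857 by edgeR), and its level stayed under 10 CPM in every library. For cox7a2l, a factor that joins complexes III and IV, the values were 49.3 ± 12.5 and 45.1 ± 8.05 CPM. The cox8a gene had 111 ± 30.8 and 155 ± 18.4 CPM.

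In complex V, 16 of 20 genes had a positive log2 fold change, the range was -0.15 to 0.57, and the lowest adjusted p was 0.572 by edgeR. The catalytic beta subunit gene atp5f1b (ENSDARG00000070083, chromosome 11, 13150239 to 13155400, danRer10) had 921, 2021 and 1631 CPM in the negative and 1470, 2312 and 1836 CPM in the positive libraries. Its groups overlapped (log2 fold change 0.3, SE 0.32, 95% interval -0.44 to 1.04). The alpha subunit gene atp5fa1 (ENSDARG00000010149) had 185, 156 and 117 against 264, 210 and 207 CPM and did not overlap between the gates. Its estimate was 0.57 (log2 fold change, SE 0.26, adjusted p = 0.572 by edgeR), and Geminin-negative replicate 1 was its highest negative library, whereas it was the lowest of the 6 for most members. The gamma subunit gene atp5f1c had 367, 761 and 718 against 635, 958 and 747 CPM. The peripheral stalk gene atp5po had 647 ± 233 and 658 ± 40.9 CPM. Of the proton-carrying c subunit genes, atp5mc1 had 303, 510 and 421 against 542, 660 and 548 CPM, without overlap (log2 fold change 0.5 ± 0.26 SE and adjusted p = 0.672 by edgeR). The small membrane subunit gene atp5md was the third complex V gene without overlap, by a gap under 1 CPM (log2 fold change 0.44). These 3 were 15% of the complex, all higher in the positive libraries, against 8.09% of all genes tested in that direction. The inhibitor genes atp5if1a and atp5if1b, whose products block ATP hydrolysis, had log2 fold changes of 0.48 and 0.27 with SE of 0.32 and 0.26.

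Over all complexes the gates did not overlap for 11 members higher (12.6%) and 1 lower (1.15%) in the positive libraries. The same counts over all genes tested were 8.09% higher and 10.3% lower, 18.4% in all.

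Several subunits have more than 1 gene copy, and the share of 1 copy in its family can be compared within a library without scaling. Reads of similar copies may be split between them, which limits these shares. Copies with no matched symbol are left out, so a family here may be incomplete. For 11 families the share per length was compared by a two-sided exact permutation test, whose smallest possible p with 3 libraries a gate is 0.1. The cox4i2 share of the cox4 family was 22%, 13.8% and 8.8% in the negative and 5.66%, 5.9% and 2.56% in the positive libraries. The groups did not overlap (exact permutation p = 0.1, adjusted over the 11 families 0.275). Within the cox6b pair, cox6b2 took 38.1%, 50% and 39.8% in the negative and 33.4%, 33.5% and 32.9% in the positive libraries, again without overlap (exact permutation p = 0.1, adjusted 0.275). The positive libraries lay within 1 percentage point of each other. The cox5ab share of the cox5a pair was 44.8%, 55.5% and 51.2% against 55.8%, 56% and 56.2% (exact permutation p = 0.1, adjusted 0.275). Of the cox5b genes analysed, cox5b2 took 0.974%, 0.623% and 0% against 2.37%, 2.53% and 4.04% (exact permutation p = 0.1, adjusted 0.275).

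**Figure D5:**
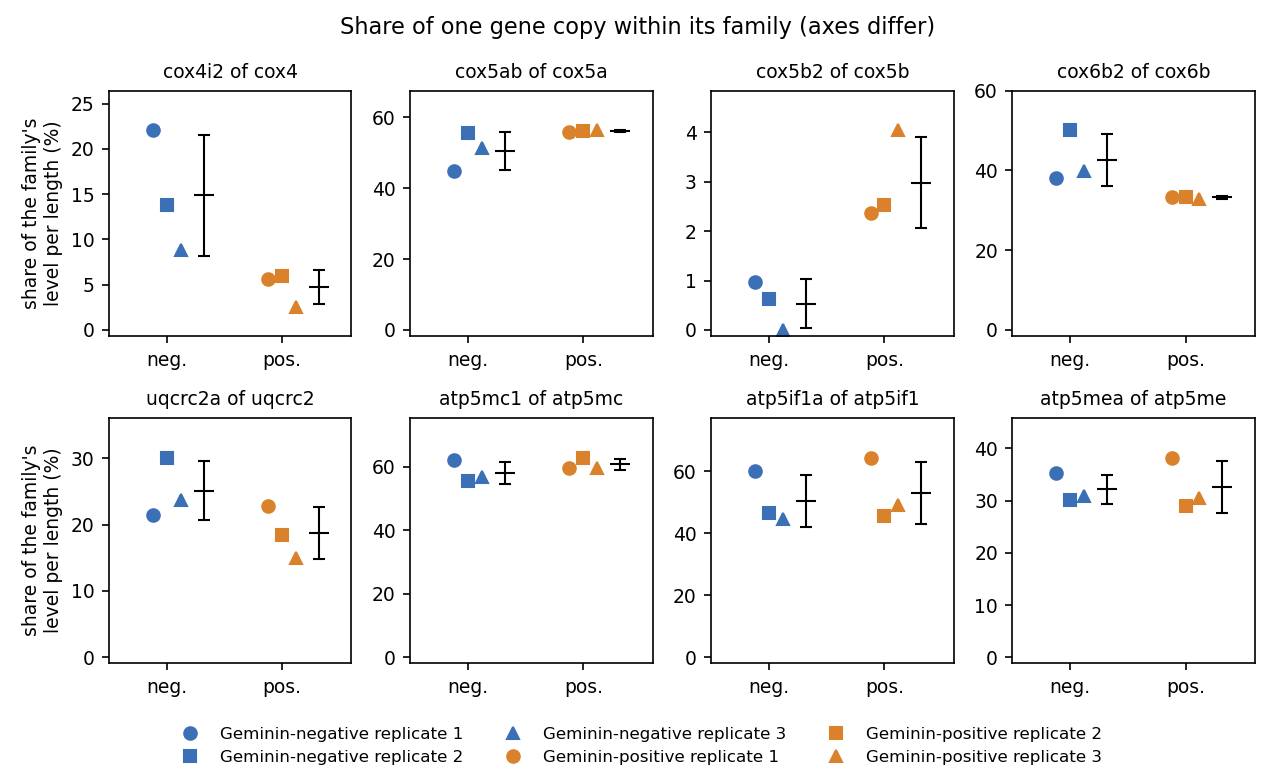
Share (%) of 1 copy in its family's level per length, by library, with mean and SD (n = 3) beside the points. Axes differ and include 0. The gates are apart for cox4i2, cox5ab, cox5b2 and cox6b2, and overlap for uqcrc2a, atp5mc1, atp5if1a and atp5mea.

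The other families overlapped between the gates. The atp5mc1 share of the c subunit genes was 58% ± 3.47 and 60.7% ± 1.81 (exact permutation p = 0.3), the atp5mea share of its pair 32.1% ± 2.79 and 32.6% ± 4.94 (0.9) and the atp5if1a share 50.4% ± 8.44 and 53.1% ± 9.99 (0.6). The uqcrc2a share was 25.1% ± 4.47 and 18.7% ± 3.91 (exact permutation p = 0.2), and its range in the negative libraries, 21.4% to 30.1%, met that in the positive ones, 14.9% to 22.7%. Copies that in mammals prevail in heart and muscle were rare in these libraries. The cox6a2 share was at most 1.34% and the cox7a1 share at most 1.08% in any library (exact permutation p = 0.4 and 0.3). The sdhda share was at most 8.44% (exact permutation p = 0.4).

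The genes that work with the respiratory chain were read from the same fit. Of 53 assembly factors, which build the complexes, 0 passed and 31 were positive, with a median log2 fold change of 0.04. Of 23 tested electron and substrate carriers 0 passed, with a median of 0.16. Among them the cytochrome c gene cycsb had 369, 614 and 577 against 539, 744 and 808 CPM (log2 fold change 0.42 ± 0.28 SE and adjusted p = 0.877 by edgeR). Its lowest library was Geminin-negative replicate 1, as for most members. The coenzyme Q gene coq10b had 61.2 ± 12.3 and 34.3 ± 4.28 CPM (log2 fold change -0.84, edgeR adjusted p = 0.409). Of 17 pyruvate dehydrogenase and citric acid cycle genes 0 passed and 14 were positive, with a median of 0.32, and idh3g had the smallest p (log2 fold change 0.89, edgeR adjusted p = 0.619). The assembly factor with the smallest p was uqcc2 (log2 fold change -0.74, edgeR adjusted p = 0.792).

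Regulators of mitochondrial gene expression also gave 0 calls among 17 tested, with a median of 0.14. The mitochondrial DNA polymerase gene polg had the smallest p (5.28 ± 4.55 and 22.3 ± 12.6 CPM, edgeR adjusted p = 0.514). The transcription factor gene nrf1 had a log2 fold change of -0.05, gabpa of -0.73 and tfam, which packages mitochondrial DNA, of 0.36, with SE of 0.63, 0.51 and 0.51. Mitochondrial ribosomal protein genes had a median of 0.04 over 73 genes with 0 called, and mrpl48 had the smallest p (log2 fold change 0.95, edgeR adjusted p = 0.525). The symbol list for cytosolic ribosomal proteins gave 0 calls among 89 and a median of 0.26, but it takes in 7 S6 kinase genes and rps19bp1. The 81 others had a median of 0.27, with 78 positive and 0 called, and rplp0 had the smallest p (log2 fold change 0.78, edgeR adjusted p = 0.388). Of 21 glycolysis genes 0 passed and 11 were negative, with a median of -0.07. The enolase gene eno1a had 62.7, 68.3 and 77.2 CPM in the negative and 10.9, 31.9 and 19.4 CPM in the positive libraries, without overlap (log2 fold change -1.74 ± 0.44 SE and adjusted p = 0.154 by edgeR). Under scaling by library size alone the medians of these lists lay between -0.56 and -0.19, with all genes at -0.47. At an unadjusted p under 0.05 the counts were 0 assembly factors, 1 carrier, 0 citric acid cycle genes, 1 regulator, 1 mitochondrial and 2 cytosolic ribosomal protein genes and 2 glycolysis genes by edgeR. The difference between these lists and the respiratory chain was not tested, nor was the part of the leukocyte, osteoclast and osteoblast marker shares in any of these values.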

How the data were processed

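RNA sequencing counts of 6 libraries were used. Per the submitters' processing notes, the tools were featureCounts 1.6.1, TopHat2 2.1.1 and Trim Galore 0.4.1, with danRer10, and the authors deposited a raw read count per gene with another measure, exon length. Strand, multi-mapping and annotation settings: not given in the sources used here. Hence overlapping genes and similar copies cannot be told apart fully. Of 92 members, 76 took a zebrafish symbol by exact match on the same chromosome in RefSeq annotation of GRCz12tu, 11 by synonym or copy name, 4 by shared neighbours (at least 12 in common among the 10 genes on each side) and 1 from the identifier table alone; coordinates are those deposited. No sequences are shown.

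edgeR 4.0.16 in R 4.3.3 (filterByExpr, TMM, robust quasi-likelihood test, threshold 0.05) was fitted over 12855 genes. SE is the absolute log2 fold change over the root of F, and the 95% interval uses the test's degrees of freedom. The fit was tested on simulated data. DESeq2 1.42.0 and limma-voom (limma 3.58.1) were alternatives. Depth ran from 15854710 to 34472612 counts, and intervals rest on the spread between libraries, which nothing in the labels places in separate experiments. No pair of libraries was a duplicate (lowest chi-square per degree of freedom 94.91). Named genes were gmnn, sp7, any called member, and per complex the highest level, the 3 smallest p and the largest p above 20 CPM. The 6 largest rises and falls above 10 CPM, the fixed sets of gene copies and each other list's smallest p were added; further genes in the text were chosen after their values were seen. Members, lists and rules were chosen with earlier results of these data known. The strata of at least 50 CPM and the ribosomal list without kinases were added after seeing the data.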

Additional observations from a re-analysis of the deposited data

How the results depend on the processing

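No member was called in 12 of the 13 alternative fits, and DESeq2 called 1. The count of called genes was 78 (16 higher), and 626 (194 higher) with DESeq2, 557 (156) without a low-count filter, 185 (12) with library size only, 134 (47) with the replicate block and 97 (39 higher) with limma-voom. Leaving out 1 library gave 22 to 96 genes, 1 to 25 higher: the negative replicates 1, 2 and 3 in turn gave 32, 22 and 25, the positive ones 96, 34 and 40. The median log2 fold change of the members was 0.04 and 0.32 without Geminin-negative replicates 1 and 2. The 3 same-numbered pairs had deviation correlations of 0.182, 0.058 and 0.04, and pairs of unlike number had -0.122 to 0.052. Each positive library correlated most with the negative library of its number, though weakly. The labels do not say that the numbers pair libraries, so the main fit was unpaired, and a pairing cannot be settled here. Under the replicate block 0 members were called, their median was 0.22, and 8 had an unadjusted p under 0.05 by edgeR instead of 4.

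With library size only the median log2 fold change was -0.27 for all members, -0.38 for complex I, -0.32 for II, -0.27 for III, -0.19 for IV and -0.23 for V. The complex II median was also negative with limma-voom (-0.22), the replicate block (-0.2) and the stricter filter (-0.04). Over left-out libraries the medians ran from -0.03 to 0.25, -0.08 to 0.23, 0.06 to 0.35, 0.12 to 0.41 and 0.07 to 0.35 for complexes I to V, each lowest without Geminin-negative replicate 1. The difference in share of counts (positive minus negative, percentage points) became 0.239 for all members with TMM-effective library sizes, and 0.057, 0.00147, 0.0239, 0.057 and 0.0998 for complexes I to V, against -0.244 on total counts for all members.

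Of 43 named members tested, 17 kept their sign in all alternatives. With library size only 20 turned: cox8a -0.02, atp5mc3a -0.07, uqcrfs1 -0.09, sdhb -0.1, cox4i1 -0.14, sdhda -0.14, uqcrc1 -0.14, atp5mc3b -0.17, atp5f1b -0.18, cox7a2a -0.18, cox5aa -0.19, cox5ba -0.19, uqcrc2a -0.19, atp5if1b -0.21, cox6b2 -0.28, cox6a1 -0.32, sdhc -0.32, uqcrh -0.33, atp5po -0.45 and cox7c -0.45. Also turned were sdhda with limma-voom (-1.26) and the replicate block (-0.32), and ndufb8 with limma-voom (0.02), the block (0.05) and the stricter filter (0.01). Over left-out libraries the estimates ran from -0.23 to 0.19 for atp5po, -7.67 to 0.75 for cox4i1l, -0.07 to 0.29 for cox6a1, -0.05 to 0.5 for cox6b2, -0.31 to 0.01 for cox7a2l, -0.22 to 0.2 for cox7c and -0.23 to 0.15 for ndufb8. They ran from -0.11 to 1.1 for ndufs1, -0.49 to 0.14 for ndufv3, -0.49 to 0.12 for sdha, -0.08 to 0.38 for sdhc, -0.13 to 0.94 for sdhda and -0.15 to 0.34 for uqcrh. None of these genes was called in any of the 13 alternative fits, and the cause of the turns was not tested. Members under 10 CPM had wide intervals, so that depth limits what can be said of the rare copies.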
